A study of Mus musculus with 61 samples.

Results

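Neurogenin 3 (Ngn3, gene symbol Neurog3) was added to Pdx1 in mouse pancreatic duct organoids. Here 6 samples of sorted cells that carried the reporters of both factors (Ngn3+Pdx1 cells) were compared with 4 samples of sorted cells that carried the Pdx1 reporter without that of Ngn3 (Pdx1 cells). These are 10 of the 32 samples and 19 of the 61 libraries of the series, and they make up 4 of its 12 conditions. They were taken by their reporter labels alone. No library among the 19 fell under the minimum of 1000000 gene counts, and technical repeats of a sample were summed.

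The organoids were three-dimensional cultures of ducts from adult C57BL/6 mice. All cultures received 3 separate doxycycline-inducible lentiviral vectors, GFP-Ngn3, LSS-Orange-Pdx1 and tdTomato-MafA, together with the Tet-On transactivator expressed from the PGK promoter, and were kept on doxycycline for 8 days. WT cultures received wild-type Ngn3. 6SA cultures received a phospho-mutant Ngn3 in which 6 serines that cyclin-dependent kinases can phosphorylate were changed to alanine. Ngn3+Pdx1 cells came from 3 WT and 3 6SA samples, of which replicates 1 and 2 were at passage 2 and replicate 3 at passage 5. Pdx1 cells came from 2 WT and 2 6SA samples, all at passage 2, so that a Pdx1 cell of a 6SA culture had been exposed to the mutant vector but was sorted without its reporter. The sort went by reporter colour, which shows that a vector is expressed but does not set its dose, and libraries were made from pools of 50 cells.

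Ngn3 is a basic helix-loop-helix transcription factor that marks the endocrine progenitors of the embryonic pancreas and is needed for the hormone cells of the islets to form. Below it stand other transcription factors, such as Neurod1, Pax4, Isl1 and Rfx6, and the machinery that packs peptide hormones into dense-core granules. Pdx1 acts early in the pancreatic primordium and later in beta cells, while adult duct cells are an epithelium of keratins, mucins, tight junctions and ion transporters that does not make hormones.

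The 19 libraries held 2579583 to 7127208 gene counts each (median 5615523), and the 10 samples 2579583 to 19461008 (median 9045257), so that 3 counts corresponded to 0.136 to 1.01 CPM (counts scaled to a total of 1000000) in a sample. Krt19, Krt7, Krt8, Krt18, Epcam, Cdh1 and Sox9, markers that define the duct label, had counts in all 10 samples. Replicate 1 of every group stood apart from the others: Epcam, an epithelial adhesion molecule, was at 84.3 to 224 CPM in the 4 replicate 1 samples. It was at 887 to 2246 CPM in the other 6. Endogenous counts per spike-in count were 732 to 1219 in Ngn3+Pdx1 cells and 1128 to 2073 in Pdx1 cells, a ratio of 0.621 (exact permutation test within cultures, two-sided p = 0.02, smallest possible p 0.01). At passage 2 alone p was 0.0556 and over the 4 pairs of same-numbered samples 0.125 (exact permutation tests), each the smallest that design allows. Reads that fell in no annotated gene were 13.1% to 27.8% of aligned reads in Ngn3+Pdx1 libraries and 9.86% to 20.2% in Pdx1 libraries. The part of these differences in the gene results was not tested. Markers of other cells were low. The 12 acinar markers summed to 6.89 to 32.8 CPM in Ngn3+Pdx1 cells and 3.91 to 7.88 CPM in Pdx1 cells, with 6 and 7 of them at 0. The 9 mesenchymal markers summed to 0.589 to 2.22 CPM in Ngn3+Pdx1 cells and 0.338 to 7.82 CPM in Pdx1 cells, with 7 at 0 in both. The 8 immune cell markers summed to 1.01 to 15 CPM in Ngn3+Pdx1 cells and 8.66 to 19.4 CPM in Pdx1 cells, the 6 endothelial markers to 0 to 27.2 CPM in Ngn3+Pdx1 cells and 0 to 0.560 CPM in Pdx1 cells and the 6 glial markers to 2.30 to 6.34 CPM in Ngn3+Pdx1 cells and 2.52 to 5.59 CPM in Pdx1 cells. None of the members tested in these 5 lists passed the test described next, and with the replicate as a block 1 did, Cd79a of the B cells (0 to 0.814 CPM against no count, adjusted p = 0.130, with the block 0.0479). The uncalled member with the most counts was Acta2 among mesenchymal markers (0.277 to 1.48 CPM against 0.113 to 7.82 CPM), Cd68 among immune cell markers (0 to 15 CPM against 3.91 to 15 CPM) and Kdr among endothelial markers (0 to 26.3 CPM against no count). Kdr, an endothelial receptor, reached that level in replicate 1 of 6SA Ngn3+Pdx1 cells, was at 0.698 CPM in replicate 2 and had no count in the other 8 samples.

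Ngn3 itself separated the groups. In Ngn3+Pdx1 cells Neurog3 (chr10:62133090-62134763, plus strand, GRCm38) was 7.87 at the lowest, 38.5 at the median and 226 CPM at the highest. Pdx1 cells had 0.180 and 0 CPM in WT cultures and 0.560 and 0.788 CPM in 6SA cultures. Replicate 3 of the WT cultures was the lowest and replicate 1 of the 6SA cultures the highest of the 6 samples, and none overlapped with Pdx1 cells (log2 fold change 7.67 ± 1.05 (SE), adjusted p = 6.37e-05). Here and below the test is edgeR's quasi-likelihood test with Benjamini-Hochberg adjustment over 24004 genes, a gene is called at an adjusted p under 0.05, and fold changes are the mean of those within WT and within 6SA cultures. A number that stands alone before an adjusted p in parentheses is the log2 fold change. In cells sorted without the Ngn3 reporter but with MafA, or with Pdx1 and MafA, the median of Neurog3 was 0.107 and 0.187 CPM. Pdx1 was at 9.84 to 48.4 CPM in Ngn3+Pdx1 cells and at 31.7 and 11.2 CPM in WT cultures and 37.7 and 14.4 CPM in 6SA cultures in Pdx1 cells, and was not called (0.35, adjusted p = 0.962). Mafa, whose vector the sort selected against, had 0.116 CPM in 1 Ngn3+Pdx1 sample, 0.0902 CPM in 1 Pdx1 sample and no count in the other 8. Counts per gene do not tell vector from endogenous transcripts, and in pools of cells a smaller share of cells with a transcript cannot be told apart from less of it in each cell.

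Across the transcriptome 317 genes were higher in Ngn3+Pdx1 cells and 41 were lower, 1.49% of the genes tested (1.32% higher and 0.171% lower). At an unadjusted p under 0.05 there were 2899 genes (12.1%). The genes that rose did so by a median of 7.09 on the log2 scale and many started from near nothing: 129 had at most 3 counts in each Pdx1 sample, 53 of them no count in any. The genes that fell did so by a median of 1.85. All 358 had the same direction in WT and in 6SA cultures, and 233 of the 317 and 34 of the 41 did not overlap between the groups. Genes were called on the mean of both cultures in these same samples, so the call itself favours both traits. Over all genes, 499 (2.08%) lay above and 491 (2.05%) below in all 6 Ngn3+Pdx1 samples. For 230 of the 317 genes that rose, replicate 3 of the WT cultures was the lowest of the 6 samples. It also had the least Neurog3. For 212, replicate 1 of the 6SA cultures was the highest, and it had the most Neurog3. These counts cover called genes only and rest on single samples, since such genes can move together. The former sample was at passage 5, which has no Pdx1 sample, and the latter was among the replicate 1 samples that stood apart. A link between the level of Neurog3 and these genes was not tested. The same replicates of the groups deviated together, and a fit that took the replicate as a block called 1011 genes (837 higher, 174 lower), 357 of them among the 358. Without any 1 of the 4 Pdx1 samples 117 to 123 genes were called, with the lone Pdx1 sample of that culture taken to vary like the other groups.

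**Figure D1:**
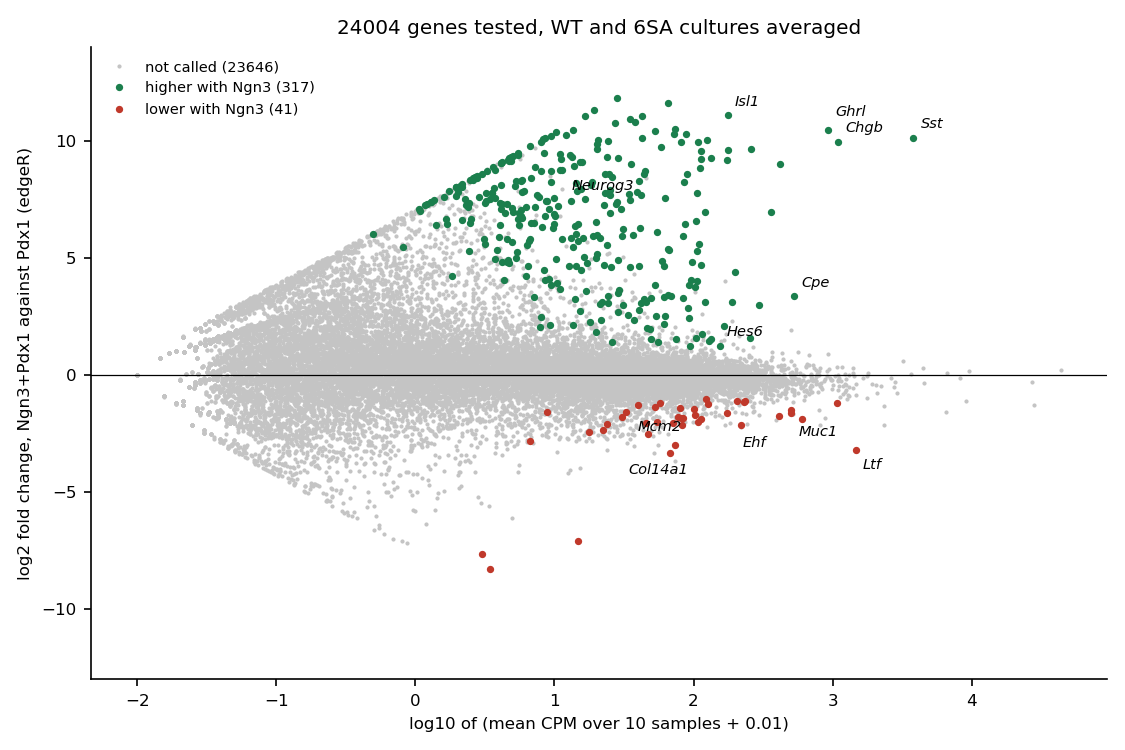
Log2 fold change of Ngn3+Pdx1 against Pdx1 cells (vertical axis) against the mean level over the 10 samples (horizontal axis, log10 of CPM plus 0.01) for 24004 genes. The 317 genes called higher (green) reach 11.8 on the log2 scale, and the 41 called lower (red) lie between -8.29 and -1.03.

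Transcription factors of the endocrine lineage rose in part. Of 23 tested, 13 were higher and none was lower, with a median log2 fold change of 6.28 (6.07 with members absent from Pdx1 cells set at the bound that a floor of 3 counts per library gives) against 0.07 over all genes. Neurod1, a target of Ngn3 in endocrine differentiation, was 20.0 at the lowest, 125 at the median and 240.2 CPM at the highest. Pdx1 cells had 0.0902 and 0 CPM in WT cultures and 0.112 and 0 CPM in 6SA cultures. No sample of either group came near the other. Pdx1 cells held 3 counts of it in all, so the pooled ratio was 2255 with a 95% counting interval of 772 to 10938, and the test gave log2 fold change 10.50 ± 1.02 (SE), adjusted p = 5.42e-07. Isl1, a LIM homeodomain factor of islet cells, was 30.0 at the lowest, 241 at the median and 574 CPM at the highest. Pdx1 cells had 0.270 and 0 CPM in WT cultures and 0.0560 and 0.113 CPM in 6SA cultures (log2 fold change 11.08 ± 1.23 (SE), adjusted p = 3.73e-06). Rfx6, which acts below Ngn3 in islet development, ranged over 34.8 to 479 CPM against 0 to 0.280 CPM (log2 fold change 9.96 ± 1.08 (SE), adjusted p = 3.06e-06). St18, a zinc finger factor, ranged over 18.4 to 298 CPM against 0 to 0.168 CPM (log2 fold change 10.27 ± 1.17 (SE), adjusted p = 6.17e-06). For Neurod1, Isl1, Rfx6 and St18 the lowest Ngn3+Pdx1 sample was replicate 3 of the WT cultures, and these 4 calls held in all 20 alternatives.

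**Figure D2:**
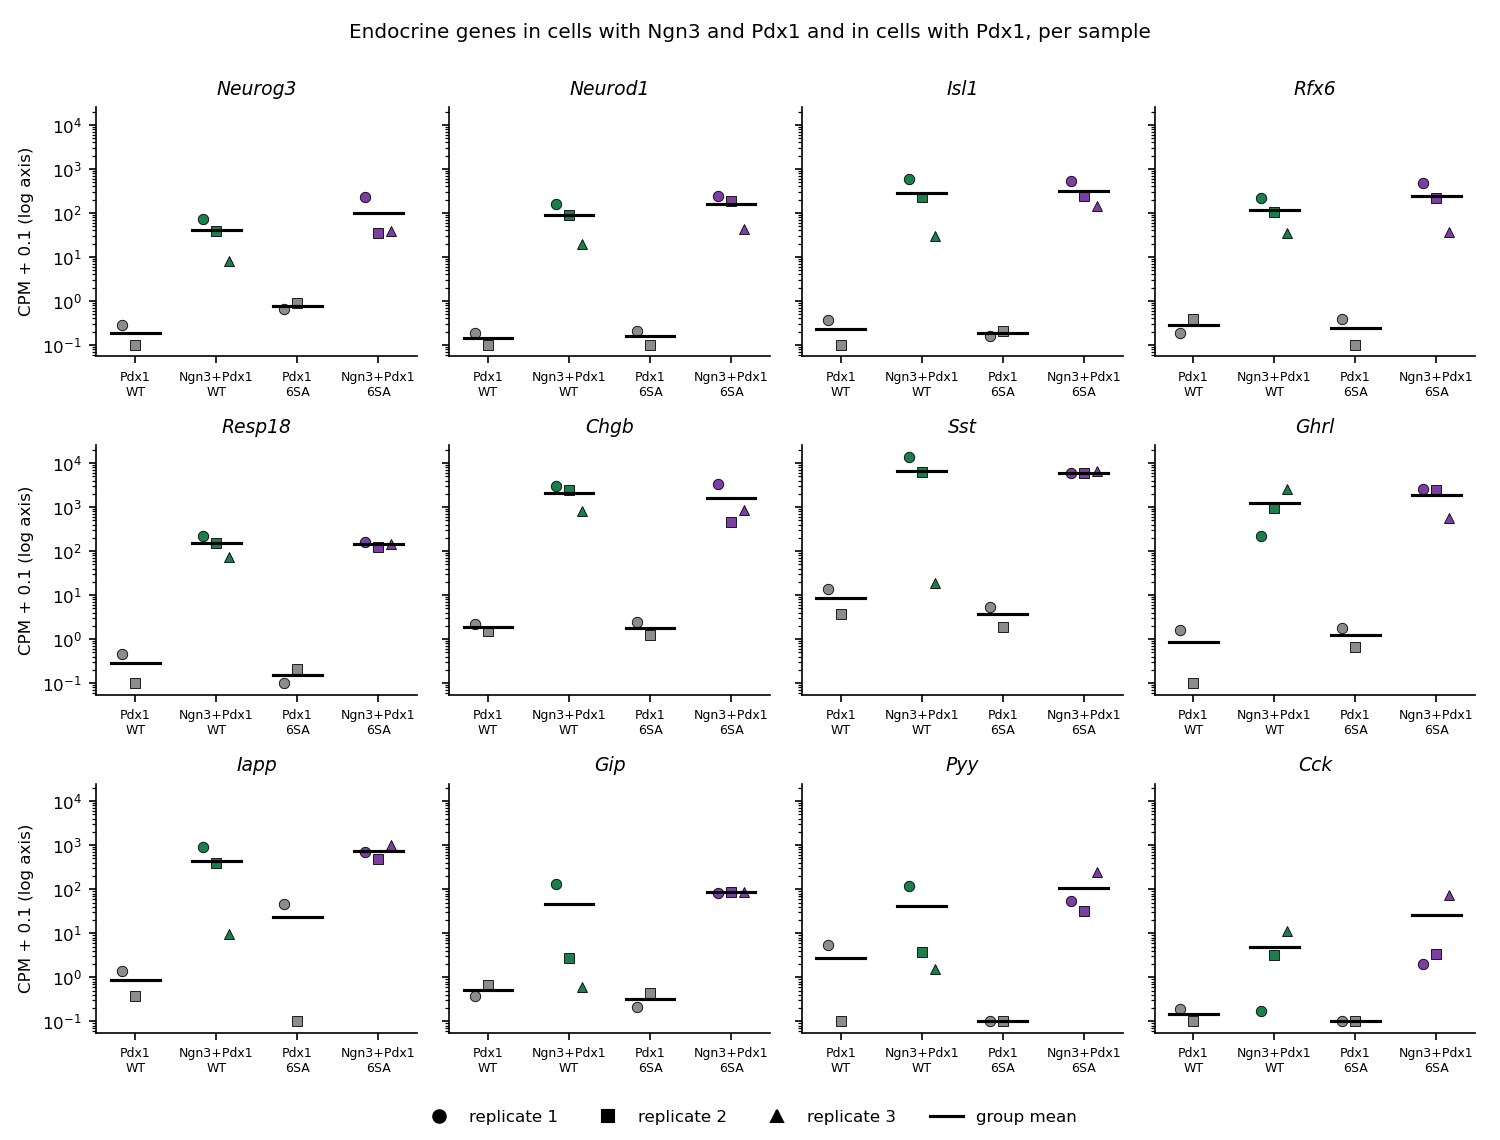
Level of 12 endocrine genes in each of the 10 samples (CPM plus 0.1, log axis), by culture and sorted population, with the group mean as a bar and the marker shape giving the replicate. Neurog3, Neurod1, Isl1, Rfx6, Resp18 and Chgb lie above all Pdx1 samples in all 6 Ngn3+Pdx1 samples, whereas Iapp, Gip, Pyy and Cck overlap between the groups.

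Pax4, needed for beta and delta cells, rose and was at 1.69 to 46.4 CPM against 0 to 0.0902 CPM, with a pooled ratio of 1251 with a 95% counting interval of 224 to 49449 over 1 count in Pdx1 cells (adjusted p = 0.00225). Nkx2-2 (7.02, adjusted p = 3.06e-04), Insm1 (6.28, adjusted p = 2.81e-04), Pax6 (6.92, adjusted p = 0.00131) and Myt1 (9.01, adjusted p = 6.93e-05), all of them factors of endocrine progenitors or islet cells, rose as well. So did Fev (7.84, adjusted p = 0.0174) and the corepressors Runx1t1 (8.69, adjusted p = 4.12e-05) and Cbfa2t3 (5.94, adjusted p = 3.76e-05). Calls of Pax4 and Fev were lost in some alternatives (adjusted p up to 0.0581 and 0.187). Nkx6-1, a factor of mature beta cells, was not called and reached 3.60 CPM at most (adjusted p = 0.151). Hhex, a factor of delta cells and of ducts, stood at 104 to 358 CPM against 50.4 to 365 CPM (0.24, adjusted p = 1). Lmx1b was not called without the replicate block (0 to 20.4 CPM against 0 to 0.180 CPM, adjusted p = 0.0778, with the block 0.00580).

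Promoter windows of 250 bases before the RefSeq start (GRCm38.p6) were found for 236 of the 317 genes that rose and 32 of the 41 that fell. They are shown for Isl1 (chr13:116309689-116309938, minus strand), Resp18 (chr1:75278416-75278665, minus strand), Scg3 (chr9:75684057-75684306, minus strand) and Rspo4 (chr2:151842677-151842926, plus strand), which are among the 10 genes with the lowest adjusted p of those that rose without overlap and have a single window that lies before the annotated gene, read 5′ to 3′ on the gene's strand. Capitals mark CANNTG, the E-box to which basic helix-loop-helix factors bind. Isl1 and Rspo4 hold 1 each, Resp18 holds 3 and Scg3 holds none.
Isl1: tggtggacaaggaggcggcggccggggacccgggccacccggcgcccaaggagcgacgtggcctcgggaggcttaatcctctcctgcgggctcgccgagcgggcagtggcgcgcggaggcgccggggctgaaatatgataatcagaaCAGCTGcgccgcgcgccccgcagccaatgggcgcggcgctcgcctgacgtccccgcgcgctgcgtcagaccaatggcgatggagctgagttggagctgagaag
Resp18: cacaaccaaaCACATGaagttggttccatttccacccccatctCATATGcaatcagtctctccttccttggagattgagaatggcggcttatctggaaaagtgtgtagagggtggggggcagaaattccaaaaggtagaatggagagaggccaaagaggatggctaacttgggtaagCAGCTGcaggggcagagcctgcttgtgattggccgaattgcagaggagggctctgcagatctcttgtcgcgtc
Scg3: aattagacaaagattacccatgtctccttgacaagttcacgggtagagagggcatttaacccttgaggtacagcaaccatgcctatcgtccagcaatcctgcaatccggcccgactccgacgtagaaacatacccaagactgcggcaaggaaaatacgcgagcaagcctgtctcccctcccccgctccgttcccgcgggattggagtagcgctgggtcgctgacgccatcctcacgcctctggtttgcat
Rspo4: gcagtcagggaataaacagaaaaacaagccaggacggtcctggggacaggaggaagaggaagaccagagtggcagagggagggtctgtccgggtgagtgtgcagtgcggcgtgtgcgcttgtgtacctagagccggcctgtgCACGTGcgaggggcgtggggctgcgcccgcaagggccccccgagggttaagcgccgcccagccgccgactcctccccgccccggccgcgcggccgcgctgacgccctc
An E-box was present in 67.2% of the 323 windows of genes that rose, in 86.8% of the 38 windows of genes that fell and in 66.2% of all 32851 windows. The E-box variant CAGATG, read on both strands and contained in CANNTG, was in 18.6%, 23.7% and 14.4% of them. TGACGTCA, the cyclic AMP response element, was in 4.3%, 0 and 1.5%. These are counts of letters in a short window and do not show binding.

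The granule and prohormone genes included Scg3 and Resp18, the pair with the lowest adjusted p of all genes tested. Of 14 tested 12 rose and none fell, with a median log2 fold change of 8.92. Resp18, a protein of endocrine secretory granules, was 74.3 at the lowest, 146 at the median and 225 CPM at the highest. Pdx1 cells had 0.361 and 0 CPM in WT cultures and 0 and 0.113 CPM in 6SA cultures (log2 fold change 10.28 ± 0.96 (SE), adjusted p = 4.35e-07). All 6 Ngn3+Pdx1 samples lay far above all 4 Pdx1 samples. Scg3, a granin that binds chromogranin A in forming granules, ranged over 64.3 to 493 CPM against 0 to 0.361 CPM (log2 fold change 9.56 ± 0.91 (SE), adjusted p = 4.35e-07). Ptprn2, a membrane protein of granules, ranged over 15.4 to 81.1 CPM against 0 to 0.721 CPM (log2 fold change 7.72 ± 0.84 (SE), adjusted p = 2.9e-06). Chgb, chromogranin B, was 454 at the lowest, 1626 at the median and 3408 CPM at the highest. Pdx1 cells had 2.16 and 1.40 CPM in WT cultures and 2.35 and 1.13 CPM in 6SA cultures (log2 fold change 9.96 ± 1.14 (SE), adjusted p = 4.8e-06). Chga (8.99, adjusted p = 1.89e-04) and Scg5 (5.61, adjusted p = 0.00168) rose too, and Scg2, with 2 counts in Pdx1 cells, had a pooled ratio of 2282 with a 95% counting interval of 631 to 18846 (adjusted p = 4.8e-06). Both prohormone convertases rose, Pcsk1 over 43.0 to 589.6 CPM against 0 to 1.58 CPM (8.85, adjusted p = 4.8e-06) and Pcsk2 over 38.2 to 1162 CPM against 0.0902 to 1.74 CPM (9.66, adjusted p = 1.31e-05), with the inhibitor Pcsk1n, at 4.58 to 121 CPM against 0 to 0.279 CPM (adjusted p = 3.69e-04). Cpe, the carboxypeptidase that trims the cut peptides, was already at 63.1 to 105 CPM in Pdx1 cells and rose to 533 to 1490.3 CPM (3.36, adjusted p = 0.00230). Calls of Scg5 and Cpe were lost in some alternatives (adjusted p up to 0.0525 and 0.0616). Pam, which amidates peptides, was not called (106 to 227 CPM against 63.4 to 126 CPM, 0.72, adjusted p = 0.405, with the block 0.0149).

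Genes of regulated exocytosis rose in 12 of 19 cases (median log2 fold change 4.02, none lower, 16 higher with the block). Scgn, the calcium sensor secretagogin, was 35.9 at the lowest, 243 at the median and 611 CPM at the highest. Pdx1 cells had 0.811 and 0 CPM in WT cultures and 0.392 and 0 CPM in 6SA cultures (log2 fold change 9.60 ± 1.08 (SE), adjusted p = 3.73e-06). Bex2, a small adaptor protein placed in the list, ranged over 45.3 to 152 CPM against 0.559 to 7.39 CPM (5.36, adjusted p = 1.51e-04). Rab3c, a vesicle GTPase, ranged over 14.3 to 101 CPM against 0 to 1.08 CPM (7.71, adjusted p = 0.00226). Syt7, a calcium sensor of vesicle fusion, ranged over 2.79 to 56.2 CPM against 0 to 0.112 CPM. Syt7 had 3 counts in Pdx1 cells in all, a pooled ratio of 482 with a 95% counting interval of 165 to 2341 (adjusted p = 3.69e-04). The SNARE genes Snap25 (4.62, adjusted p = 0.0120) and Vamp2 (1.38, adjusted p = 0.0286) rose by less, from 1.58 to 2.79 CPM and 12 to 14.9 CPM in Pdx1 cells. Calls of Rab3c, Snap25 and Vamp2 were lost in some alternatives (adjusted p up to 0.0581, 0.152 and 0.167).

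The genes that couple a stimulus to secretion rose in part. Of 25 tested 10 rose and none fell, with a median of 5.83 (5.73 at the bounds), and 18 rose with the block. Gng4, a G protein gamma subunit, was 18.5 at the lowest, 149 at the median and 240.2 CPM at the highest. Pdx1 cells had 0.0902 and 0.279 CPM in WT cultures and 0.168 and 0 CPM in 6SA cultures (log2 fold change 9.92 ± 1.08 (SE), adjusted p = 2.9e-06). Cacna2d1, an auxiliary subunit of voltage-gated calcium channels, ranged over 41.2 to 257 CPM against 1.68 to 11.1 CPM (log2 fold change 4.81 ± 0.63 (SE), adjusted p = 3.44e-05). Kcnk16, a background potassium channel of islets, ranged over 2.46 to 103 CPM against 0 to 0.270 CPM (8.57, adjusted p = 1e-04). Gnao1, a G protein alpha subunit, ranged over 5.25 to 111 CPM against 0 to 0.270 CPM (7.77, adjusted p = 0.00101). The pore subunits Cacna1c (6.54, adjusted p = 0.00891) and Cacna1d (5.83, adjusted p = 0.00403) rose too, with adjusted p up to 0.141 and 0.101 in the alternatives. The subunits of the ATP-sensitive potassium channel were not called without the block. Abcc8 ranged over 10.7 to 441 CPM against 0 to 31.7 CPM (3.53, adjusted p = 0.185, with the block 2.78e-04). Kcnj11 ranged over 0 to 17.8 CPM against 0 to 0.504 CPM (6.61, adjusted p = 0.134, with the block 0.0146). Slc2a2, the glucose transporter of mouse beta cells, reached 0.832 CPM at most in Ngn3+Pdx1 cells and 0.784 CPM in Pdx1 cells (2.38, adjusted p = 0.647).

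Hormone transcripts rose unevenly. The 22 hormone and peptide genes summed to 2599 to 15226 CPM in Ngn3+Pdx1 cells and 3.71 to 56.7 CPM in Pdx1 cells, and of 20 tested 5 were higher and none lower. The median log2 fold change of 3.47 fell to 2.67 with genes absent from Pdx1 cells at their bounds. Somatostatin (Sst, chr16:23889573-23890958), the delta cell hormone, was 19.0 at the lowest, 6066 at the median and 13797 CPM at the highest. Pdx1 cells had 13.6 and 3.63 CPM in WT cultures and 5.38 and 1.80 CPM in 6SA cultures. In 5 of the 6 samples it lay between 5788 and 13797 CPM, and in replicate 3 of the WT cultures at 19.0 CPM, only just above the highest Pdx1 sample (log2 fold change 10.12 ± 2.01 (SE), adjusted p = 0.00483). The call was lost without any 1 of the 4 Pdx1 samples (adjusted p 0.0947 to 0.126). Ghrelin (Ghrl, chr6:113716119-113719880), the hormone of epsilon cells, was 221 at the lowest, 1709 at the median and 2558 CPM at the highest. Pdx1 cells had 1.53 and 0 CPM in WT cultures and 1.74 and 0.563 CPM in 6SA cultures (log2 fold change 10.45 ± 1.32 (SE), adjusted p = 1.92e-05). It had no overlap between groups, was among the highest in the WT sample with the least Sst (2552 CPM), and was lowest in the WT sample with most Sst (221 CPM). Mboat4, which acylates ghrelin, rose too (2.70 to 51.0 CPM against 0 to 0.180 CPM) from 2 counts in Pdx1 cells, a pooled ratio of 515 with a 95% counting interval of 142 to 4253 (adjusted p = 0.00230, and 0.0522 without replicate 1 of the 6SA Pdx1 cells).

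Iapp, the amylin gene, was 9.51 at the lowest, 593 at the median and 1013 CPM at the highest. Pdx1 cells had 1.26 and 0.279 CPM in WT cultures and 46.5 and 0 CPM in 6SA cultures (log2 fold change 6.95 ± 1.76 (SE), adjusted p = 0.0376). Replicate 3 of the WT cultures lay below replicate 1 of the 6SA Pdx1 cells, so the groups overlapped, and the 46.5 CPM of the latter came from 1 of its 3 libraries, at 126 CPM beside 0.922 and 1.61. Gip, an incretin made by gut K cells, was 0.492 at the lowest, 83.7 at the median and 132 CPM at the highest. Pdx1 cells had 0.270 and 0.559 CPM in WT cultures and 0.112 and 0.338 CPM in 6SA cultures (log2 fold change 7.79 ± 1.73 (SE), adjusted p = 0.0137). It lay between 81.3 and 132 CPM in 4 samples and lay at 2.70 and 0.492 CPM in replicates 2 and 3 of the WT cultures, the last within the range of Pdx1 cells. Both calls failed without single samples, each without any 1 Pdx1 sample, Iapp also without each of 3 Ngn3+Pdx1 samples (adjusted p up to 0.295) and Gip also without replicate 1 of WT Ngn3+Pdx1 cells (up to 0.183).

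The 2 classical islet hormones of the beta and alpha cell were nearly absent. Ins2 had no count in any of the 10 samples. Ins1 had 0.698 CPM at most in Ngn3+Pdx1 cells and none in Pdx1 cells (adjusted p = 0.670), and reads shared by these near-identical genes may have been dropped in counting. Gcg, the glucagon gene, reached 0.116 CPM in Ngn3+Pdx1 cells and 0.338 CPM in Pdx1 cells (adjusted p = 1), within 3 counts in every sample. Pyy ranged over 1.48 to 241 CPM against 0 to 5.41 CPM (8.41, adjusted p = 0.0872, with the block 0.00635) and Gal, the peptide galanin, over 0.164 to 83.7 CPM against 0.338 to 2.52 CPM (3.56, adjusted p = 0.207, with the block 0.00223). Cck ranged over 0.0693 to 73.8 CPM against 0 to 0.0902 CPM, with a pooled ratio of 420.1 with a 95% counting interval of 75.1 to 16618 over 1 count in Pdx1 cells (adjusted p = 0.114), and was highest in replicate 3 of the 6SA cultures. Ppy, the pancreatic polypeptide of gamma cells, had counts in 3 Ngn3+Pdx1 samples, 0.233, 1.66 and 3.98 CPM, and none in Pdx1 cells (at least 2.43-fold higher with 3 counts per library as the floor, adjusted p = 0.319). Gast had counts in the 3 6SA samples of Ngn3+Pdx1 cells and in no other, at up to 5.35 CPM (at least 2.70-fold higher, adjusted p = 1), and Pomc ranged over 0 to 4.93 CPM against 0.338 to 1.96 CPM (0.65, adjusted p = 0.895). Sct, Tac1, Npy, Calca, Calcb and Ucn3 stayed at or under 1.39 CPM in all 10 samples, none of them called, and Nts and Vip were too rare to be tested.

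Hormone levels also differed between technical repeats, and whether a repeat is a pool of its own or another library of the same pool is not given in the sources used here. Technical repeats of 1 Ngn3+Pdx1 sample differed far more in Gip than in Neurog3: in replicate 1 of the WT cultures Gip was at 334 and 4.15 CPM while Neurog3 was at 44.2 and 115, and in replicate 2 of the 6SA cultures Gip was at 274 and 2.40. In those WT libraries Sst was at 27933 and 6028 CPM and Ghrl at 509.8 and 46.3. The 9 Pdx1 libraries reached 16 CPM of Sst at most. Values per library are counts over the plain total of that library.

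**Figure D3:**
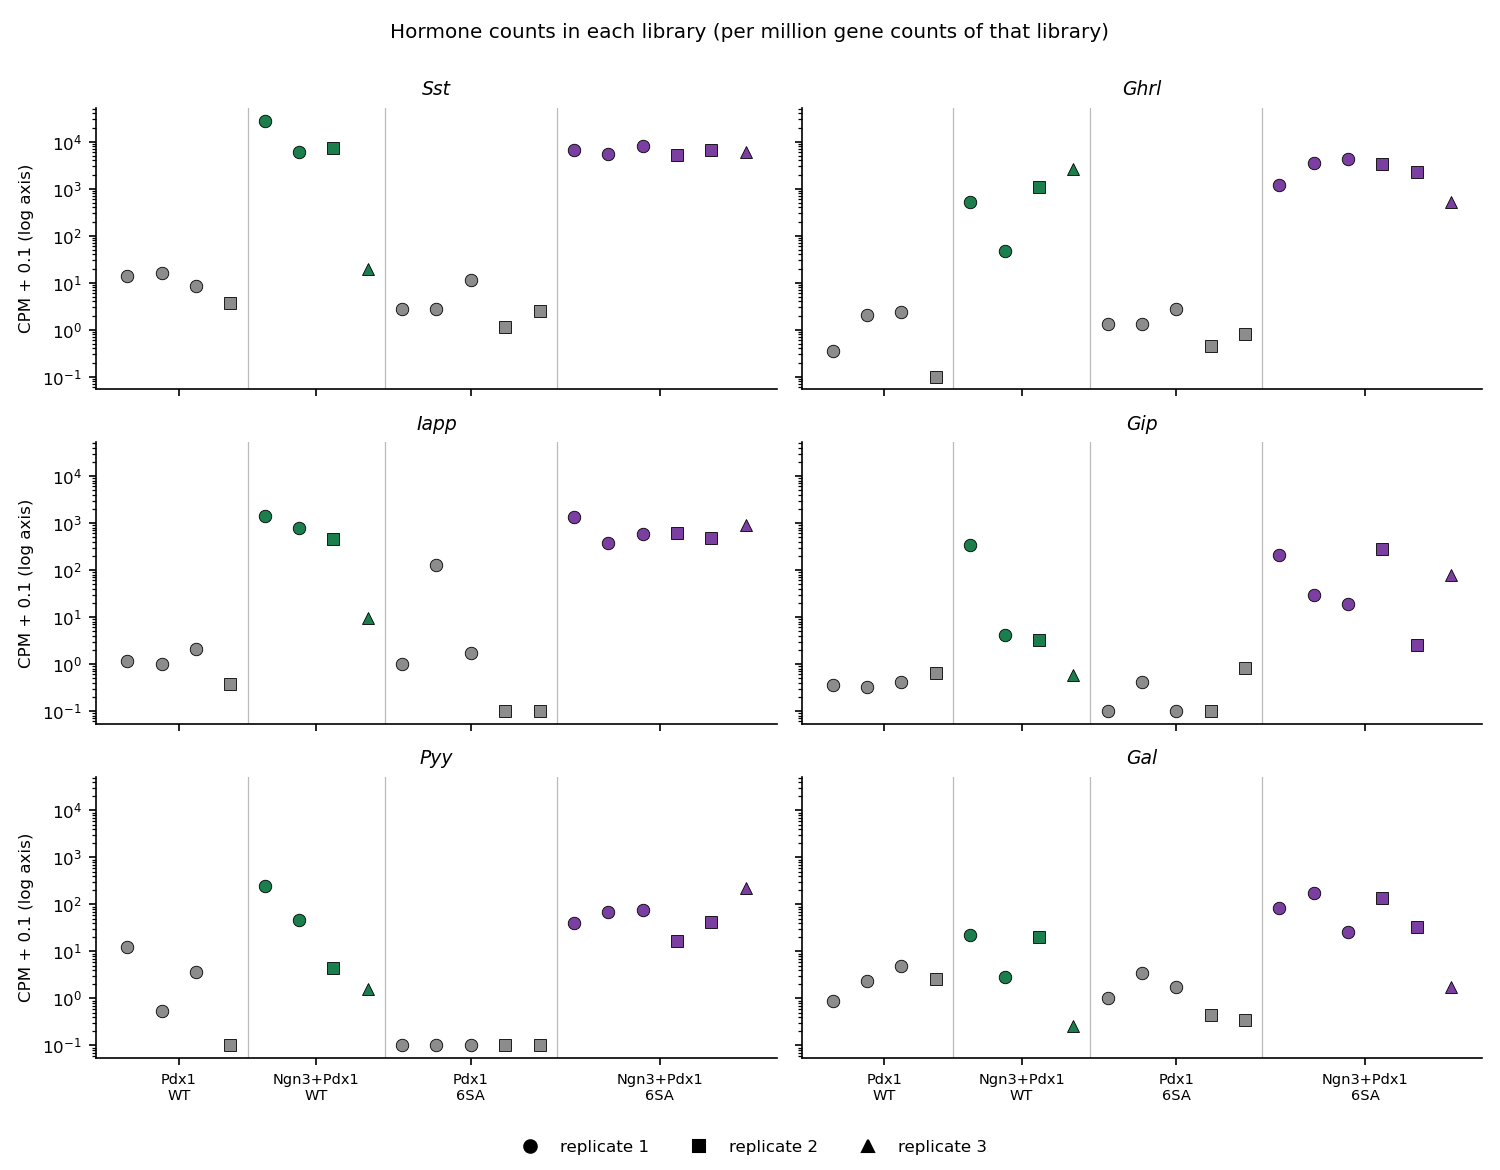
Level of 6 hormone and peptide genes in each of the 19 libraries (CPM by the plain total of the library, plus 0.1, log axis), in 4 blocks by sorted population and culture, with the marker shape giving the replicate. Sst is at 5155 CPM or above in all Ngn3+Pdx1 libraries but that of WT replicate 3 (19.2 CPM), and Gip spreads from 0.496 to 334 CPM within them.

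Beside the secretory genes, a neuronal set rose in part. Of 22 genes of the neuronal cytoskeleton and of adhesion 9 were higher and none lower (median 3.38, 15 higher with the block). Nefm, a neurofilament subunit, was 24.1 at the lowest, 80.0 at the median and 470.2 CPM at the highest. Pdx1 cells had 0.451 and 0 CPM in WT cultures and 0.672 and 0 CPM in 6SA cultures (log2 fold change 8.58 ± 1.01 (SE), adjusted p = 6.29e-06). Rundc3a ranged over 12.8 to 45.5 CPM against 1.91 to 5.60 CPM (3.02, adjusted p = 4.6e-04). Elavl4, an RNA-binding protein of neurons, ranged over 1.64 to 31.6 CPM against 0 to 0.361 CPM (7.09, adjusted p = 0.00198, and 0.0506 without replicate 2 of the 6SA Pdx1 cells). Tubb3, the neuronal beta tubulin, ranged over 12.1 to 501 CPM against 0.563 to 13.5 CPM (5.29, adjusted p = 0.00611). Tubb3 overlapped between the groups at its lowest sample, replicate 3 of the WT cultures, and its call was lost without any 1 Pdx1 sample (adjusted p up to 0.120).

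Of the 7 serotonin genes tested 1 was called. Ddc, the amino acid decarboxylase, rose (0.955 to 9.51 CPM against 0 to 0.0560 CPM, a pooled ratio of 162 with a 95% counting interval of 28.9 to 6441 over 1 count in Pdx1 cells, adjusted p = 0.0355), and that call was lost in 9 of 20 alternatives. Tph1, the first enzyme of the pathway outside the brain, ranged over 0 to 3.98 CPM against 0 to 3.07 CPM (1.96, adjusted p = 0.848), and Gch1, the uncalled member with the most counts, over 57.6 to 252 CPM against 19.0 to 156 CPM (0.84, adjusted p = 0.715).

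In the Notch pathway, which restrains Ngn3 in the embryo, 1 of 20 genes was called (median 0.42, 4 with the block). Hes6, which opposes Hes1, was 131 at the lowest, 192 at the median and 305 CPM at the highest. Pdx1 cells had 84.6 and 93.3 CPM in WT cultures and 86.4 and 69.3 CPM in 6SA cultures (log2 fold change 1.24 ± 0.30 (SE), adjusted p = 0.0316), without overlap but with adjusted p up to 0.361 in the alternatives. Hes1, the main Notch target, went with the replicate: it was at 4.80 to 23.5 CPM in the 4 replicate 1 samples and at 58.1 to 206 CPM in the others (-0.34, adjusted p = 1). The ligand Dll4 ranged over 2.95 to 112 CPM against 0 to 4.76 CPM (3.71, adjusted p = 0.142, with the block 9.76e-04) and Dll1 over 8.75 to 58.8 CPM against 19.5 to 38.4 CPM (-0.33, adjusted p = 0.951). In the Wnt pathway Rspo4, a secreted R-spondin that enhances Wnt signals, was the only 1 of 18 called: 15.7 at the lowest, 37.0 at the median and 64.4 CPM at the highest. Pdx1 cells had 0.180 and 0.279 CPM in WT cultures and 0.0560 and 0 CPM in 6SA cultures (log2 fold change 8.56 ± 0.95 (SE), adjusted p = 4.8e-06). Its 6 samples kept well clear of Pdx1 cells. Wnt7b, with the most counts among the others, ranged over 52.8 to 164 CPM against 123 to 233 CPM (-0.60, adjusted p = 0.704), and the list's median was -0.33.

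Of 10 genes of the epithelial-mesenchymal transition 3 were higher and none lower (median 2.05). Cdh2, the cadherin of neural and mesenchymal cells that islet cells also carry, ranged over 31.0 to 108 CPM against 2.48 to 16.9 CPM (log2 fold change 2.76 ± 0.67 (SE), adjusted p = 0.0295). Sparc, a matrix protein, ranged over 19.3 to 101 CPM against 1.58 to 5.54 CPM (log2 fold change 3.50 ± 0.87 (SE), adjusted p = 0.0340). Zeb1, a repressor of epithelial genes, ranged over 8.53 to 46.1 CPM against 1.68 to 6.50 CPM (log2 fold change 2.71 ± 0.68 (SE), adjusted p = 0.0357). None of the 3 overlapped between the groups, and each call was lost without some single samples (adjusted p up to 0.247, 0.249 and 0.247). Fn1, fibronectin, had the most counts of the uncalled members (618 to 2074 CPM against 1502 to 1973 CPM, -0.12, adjusted p = 1). Cdh1, the epithelial cadherin, overlapped between the groups (372 to 663 CPM against 344 to 646 CPM, -0.02, adjusted p = 1).

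**Figure D4:**
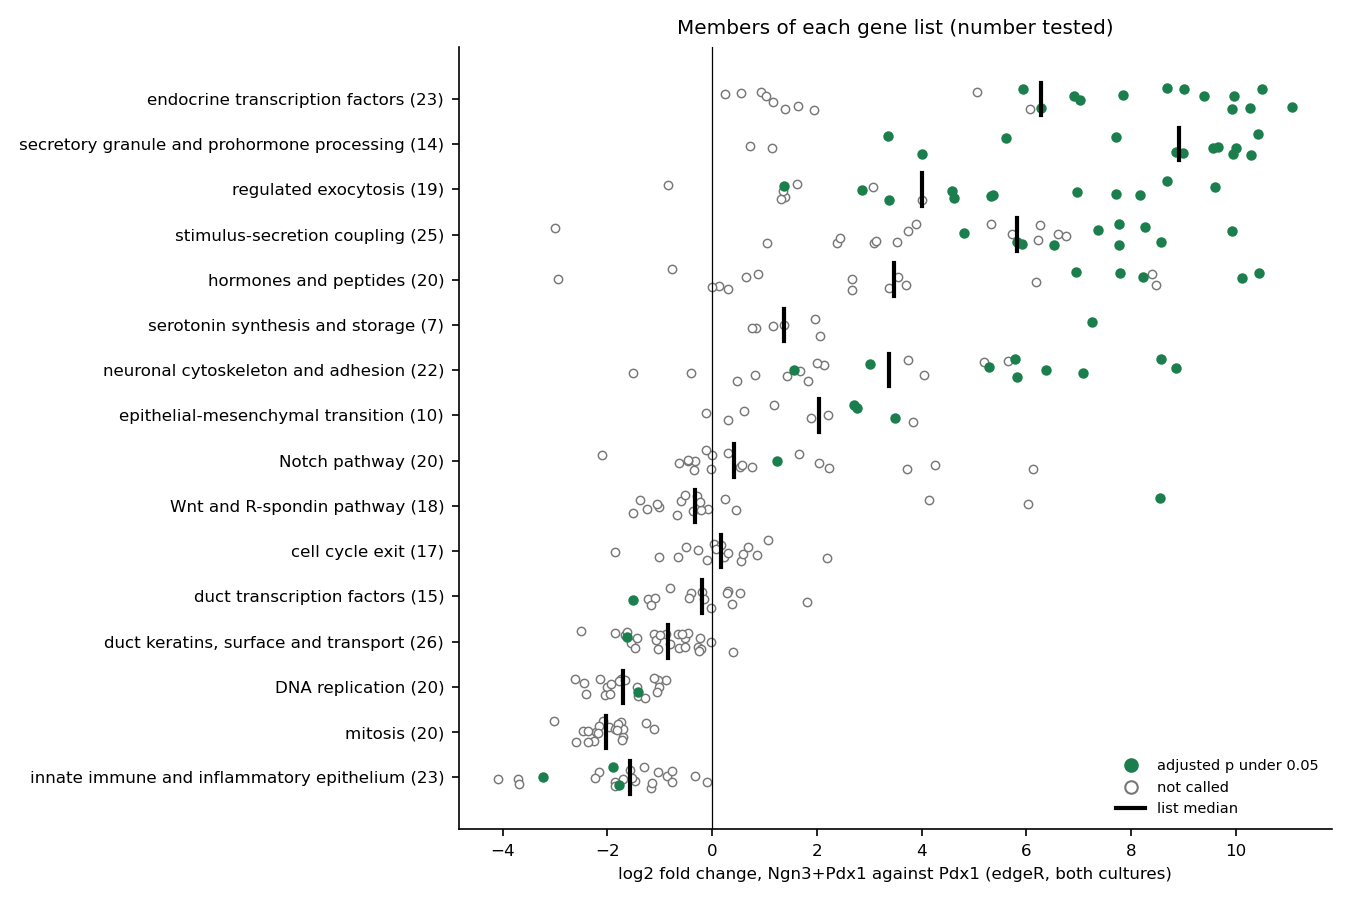
Log2 fold change of Ngn3+Pdx1 against Pdx1 cells for the tested members of 16 gene lists, with called genes filled and the list median as a bar. The secretory granule list has the highest median (8.92), and all members of the DNA replication, mitosis and innate immune lists lie left of 0.

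Duct genes were mostly lower, and few were called. Among 15 duct transcription factors 1 fell and none rose (median -0.19), and with the block 2 fell and 1 rose. The latter was Prox1, a homeodomain factor, at 29.2 to 305 CPM against 24.9 to 56.6 CPM (1.81, adjusted p = 0.0908, with the block 0.00607). Ehf, an ETS factor of epithelia (chr2:103263433-103303278), was 172 at the lowest, 298 at the median and 393 CPM at the highest in Ngn3+Pdx1 cells. Pdx1 cells had 937 and 639 CPM in WT cultures and 1001 and 724 CPM in 6SA cultures (log2 fold change -1.50 ± 0.32 (SE), adjusted p = 0.0104). All 6 samples lay below all 4, and the call was lost at passage 2 alone and without replicate 1 of either Pdx1 group (adjusted p up to 0.107). Sox9, which marks ducts, overlapped (22.1 to 242 CPM against 45.0 to 173 CPM, 0.37, adjusted p = 0.952), and Onecut2, the uncalled member with the most counts, ranged over 327 to 807 CPM against 473 to 822 CPM (-0.19, adjusted p = 0.944). Of 26 duct keratin, surface and transport genes 25 had a log2 fold change below 0 (median -0.85) and 6 did not overlap, yet 1 was called (3 with the block). This was Muc1, a mucin of the apical membrane: 172 at the lowest, 290.0 at the median and 399.7 CPM at the highest. Pdx1 cells had 932 and 586 CPM in WT cultures and 1032 and 844 CPM in 6SA cultures (log2 fold change -1.62 ± 0.40 (SE), adjusted p = 0.0316, up to 0.192 without single samples). Krt19, the duct keratin, ranged over 121 to 401 CPM against 759.9 to 1031 CPM (-1.66, adjusted p = 0.227). Spp1, osteopontin, with the most counts of the uncalled members, ranged over 1147 to 13093 CPM against 8039 to 22946 CPM (-1.10, adjusted p = 0.507). The list summed to 8837 to 32227 CPM in Ngn3+Pdx1 cells and 31474 to 46409 CPM in Pdx1 cells.

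**Figure D5:**
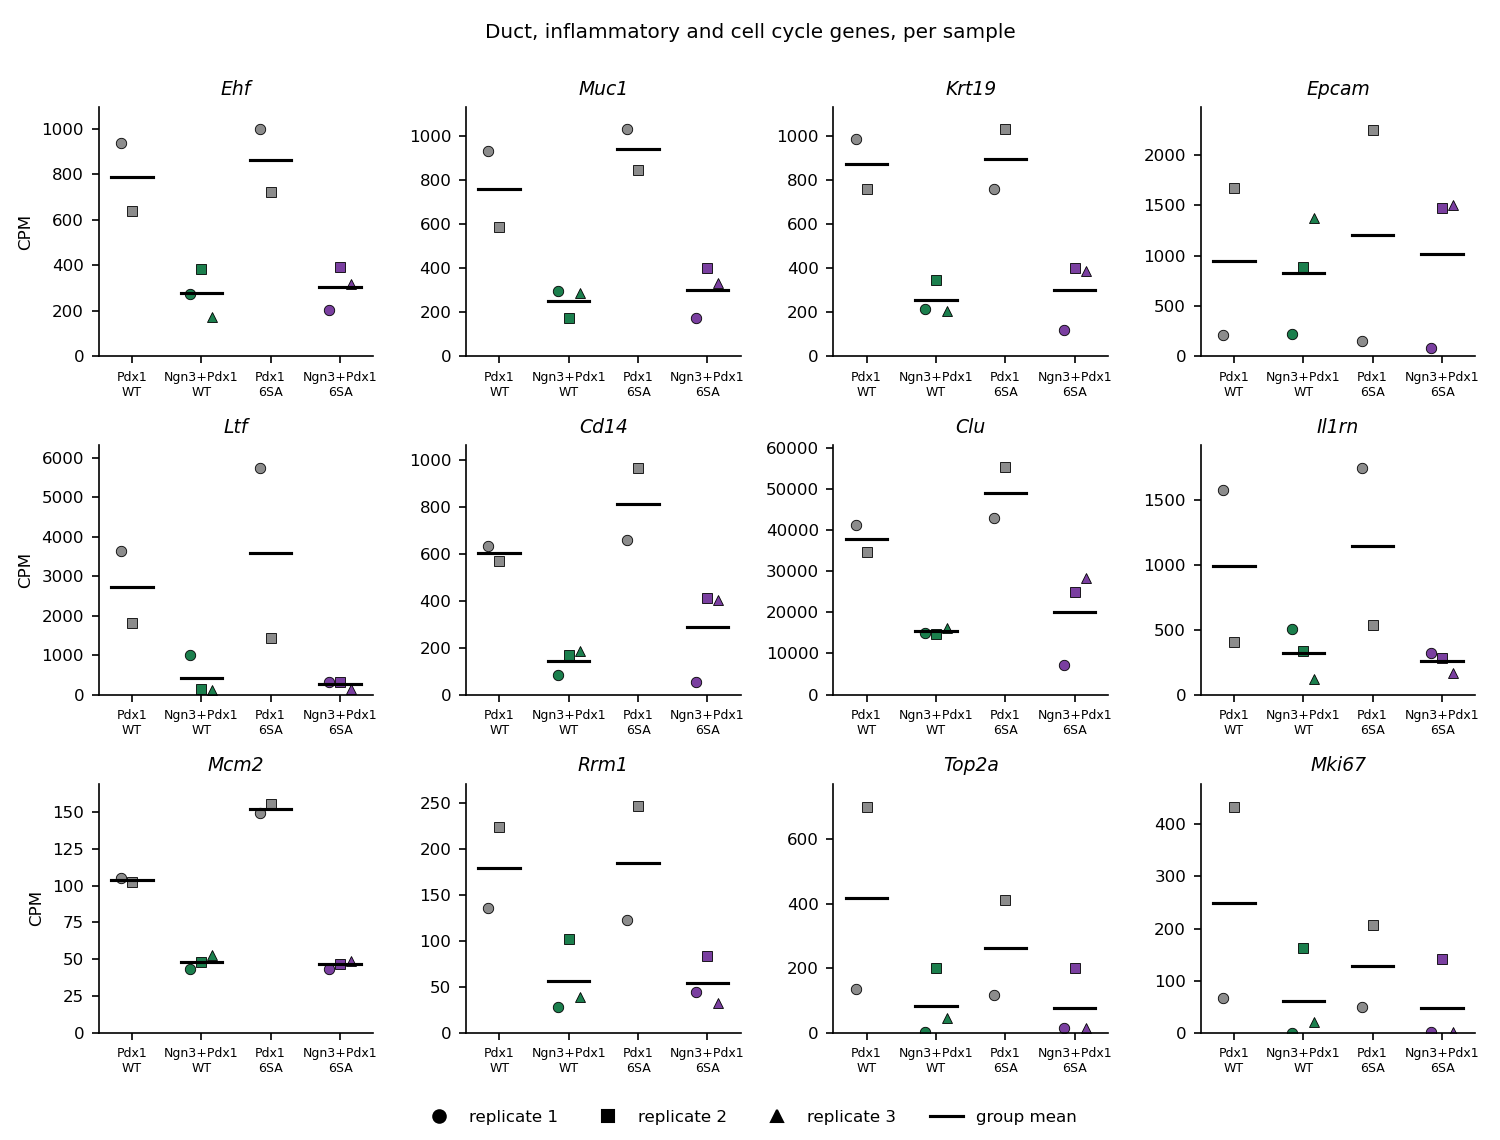
Level of 12 duct, inflammatory and cell cycle genes in each of the 10 samples (CPM, linear axes from 0), by culture and sorted population, with the group mean as a bar and the marker shape giving the replicate. Ehf, Muc1, Krt19, Ltf, Cd14, Clu, Mcm2 and Rrm1 are lower in all 6 Ngn3+Pdx1 samples than in all 4 Pdx1 samples, whereas Epcam, Top2a and Mki67 are lower in replicate 1 than in replicate 2 of every group.

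Genes of DNA replication and mitosis were lower without passing the test in most cases. All 20 DNA replication genes had a log2 fold change below 0 (median -1.70), 9 did not overlap, and 1 was called (5 with the block). Mcm2, a subunit of the replicative helicase, was 43.3 at the lowest, 47.4 at the median and 52.7 CPM at the highest. Pdx1 cells had 105 and 103 CPM in WT cultures and 149 and 156 CPM in 6SA cultures (log2 fold change -1.42 ± 0.30 (SE), adjusted p = 0.00853). The 6 samples varied little, and the call was lost without replicate 1 of the WT or replicate 2 of the 6SA Pdx1 cells and with 1 technical repeat a sample (adjusted p up to 0.0818). Rrm1, a subunit of ribonucleotide reductase, ranged over 28.1 to 102 CPM against 123 to 247 CPM (-1.73, adjusted p = 0.149, with the block 0.0304). The list summed to 276 to 939.9 CPM in Ngn3+Pdx1 cells and 1040.3 to 2238 CPM in Pdx1 cells, without overlap. All 20 mitosis genes had a log2 fold change below 0 (median -2.02), but none was called and none was without overlap. With the block 2 were called, and 6 with a block for the replicate within each culture. The sum of the mitosis list was 38.8 to 1637 CPM in Ngn3+Pdx1 cells and 548 to 3571 CPM in Pdx1 cells. It varied with the replicate, being lower in replicate 1 than in replicate 2. In each same-numbered pair it was lower with Ngn3 (WT 38.8 against 933 and 989 against 3571, 6SA 154 against 548 and 1637 against 2591 CPM). Top2a, a topoisomerase of dividing cells, had 2.29, 199 and 44.5 CPM in WT Ngn3+Pdx1 cells and 136 and 700.3 CPM in WT Pdx1 cells (-2.08, adjusted p = 0.420, with the block 0.0224). Of 17 genes of cell cycle exit none was called (median 0.17), and with the block 1 was higher, the inhibitor Cdkn1c (2.30 to 28.9 CPM against 0.0560 to 4.47 CPM, 2.20, adjusted p = 0.441, with the block 0.0392). Cdkn1a, the inhibitor p21, ranged over 542 to 1072 CPM against 361 to 557 CPM (0.86, adjusted p = 0.226) and Btg2, with the most counts, over 794 to 1719 CPM against 718 to 1779 CPM (0.03, adjusted p = 1).

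The inflammatory genes of the duct epithelium were lower in sum without overlap. All 23 innate immune and inflammatory genes tested had a log2 fold change below 0 (median -1.57), 9 did not overlap and 3 were called (6 with the block). The list summed to 8946 to 42239 CPM in Ngn3+Pdx1 cells and 59558 to 82805 CPM in Pdx1 cells. Ltf, the antimicrobial protein lactoferrin (chr9:111019271-111042767), was 121 at the lowest, 229.7 at the median and 1009 CPM at the highest. Pdx1 cells had 3646 and 1819.9 CPM in WT cultures and 5724 and 1429 CPM in 6SA cultures (log2 fold change -3.23 ± 0.74 (SE), adjusted p = 0.0179). All 6 Ngn3+Pdx1 samples were below all 4 Pdx1 samples. Cd14, a receptor for bacterial lipopolysaccharide, ranged over 52.1 to 411 CPM against 570.1 to 964 CPM without overlap (log2 fold change -1.77 ± 0.46 (SE), adjusted p = 0.0465). Il1rn, the interleukin 1 receptor antagonist, ranged over 119 to 506 CPM against 406 to 1749.9 CPM with overlap (log2 fold change -1.90 ± 0.49 (SE), adjusted p = 0.0408). The calls of Cd14 and Il1rn were lost with DESeq2's median-of-ratios scaling in edgeR (adjusted p = 0.0640 and 0.0537), and all 3 were lost without some single samples (adjusted p up to 0.178 for Ltf, 0.238 for Cd14 and 0.419 for Il1rn). Clu, the secreted chaperone clusterin, with the most counts of the uncalled members, was 7068 at the lowest, 15627 at the median and 28343 CPM at the highest. Pdx1 cells had 41231 and 34560.0 CPM in WT cultures and 42781 and 55210.0 CPM in 6SA cultures. It did not overlap and just missed the threshold (-1.30, adjusted p = 0.0562, with the block 0.00953).

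The genes that fell with the lowest adjusted p and without overlap were, beside Mcm2 and Ehf, of varied kinds. Efemp1, an extracellular matrix glycoprotein, was 23.9 at the lowest, 36.2 at the median and 38.5 CPM at the highest. Pdx1 cells had 164 and 103 CPM in WT cultures and 231 and 122 CPM in 6SA cultures (log2 fold change -2.16 ± 0.42 (SE), adjusted p = 0.00366). Gsap ranged over 40.4 to 79.6 CPM against 139 to 188 CPM (-1.48, adjusted p = 0.00463). Nrm, the nuclear membrane protein nurim, ranged over 2.36 to 19.9 CPM against 20.9 to 68.0 CPM (-2.37, adjusted p = 0.00463). Dram1, a lysosomal protein, ranged over 53.8 to 129.8 CPM against 367 to 447 CPM (-2.15, adjusted p = 0.00734). H6pd, a dehydrogenase of the endoplasmic reticulum, ranged over 56.6 to 119 CPM against 188 to 435 CPM (-1.63, adjusted p = 0.00758), and Itpripl1 over 20.9 to 48.9 CPM against 80.4 to 87.2 CPM (-1.36, adjusted p = 0.0106). Col14a1, a collagen, ranged over 7.64 to 20.9 CPM against 61.3 to 226 CPM (-3.35, adjusted p = 0.0117) and Ugt1a7c, a glucuronosyltransferase, over 21.5 to 42.9 CPM against 59.2 to 222 CPM (-2.05, adjusted p = 0.0119). Gsap and Dram1 were called in all 20 alternatives, and the other calls were lost in some (adjusted p up to 0.114 for Efemp1, 0.126 for Nrm, 0.141 for H6pd, 0.0719 for Itpripl1, 0.132 for Col14a1 and 0.137 for Ugt1a7c). Among the 10 genes that rose with the lowest adjusted p, 1 is an uncharacterised transcript, 1700086L19Rik, at 33.8 to 176 CPM against 0 to 0.180 CPM (log2 fold change 9.72 ± 1.01 (SE), adjusted p = 1.54e-06).

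Within each culture fewer genes passed, and no difference between the forms of Ngn3 was called. In WT cultures 26 genes (0.108%) were higher and none lower, with 1201 (5.0%) at an unadjusted p under 0.05. In 6SA cultures 88 (0.367%) were higher and none lower, with 1665 (6.94%) at an unadjusted p under 0.05. With the block these counts were 187 and 414. The WT count was 0 without either WT Pdx1 sample and 59 without replicate 3 of WT Ngn3+Pdx1 cells, and the 6SA count was 0 or 1 without either 6SA Pdx1 sample and 52 without replicate 1 of 6SA Ngn3+Pdx1 cells. Sst, which passed over both cultures, passed in neither alone (9.56 in WT, adjusted p = 0.378, and 10.69 in 6SA, adjusted p = 0.146), while Neurod1 (10.15 and 10.85), Resp18 (9.14 and 11.42) and Ghrl (10.31 and 10.58) passed in both. The test of the difference between the 6SA and WT effects called 0 genes with edgeR (415 at an unadjusted p under 0.05, 1.73%), 1 with the block and 9 with DESeq2. In data simulated for the main comparison, DESeq2 called 44 unchanged genes among 195 and edgeR 3 among 143. For Neurog3 itself the difference was -0.91 on the log2 scale (adjusted p = 1). That value rests on few counts: WT Pdx1 libraries had 0 to 2 counts of it and 6SA ones 1 to 7. Ngn3+Pdx1 libraries had 7.93 to 115 CPM of Neurog3 in WT and 27.7 to 355 CPM in 6SA cultures.

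The effect of Ngn3 beside Pdx1 was then set against its effect beside MafA and beside Pdx1 with MafA, each with its own cells without Ngn3 as controls. Against the effect beside MafA 0 genes differed with edgeR (820 at an unadjusted p under 0.05, 3.42%) and 19 with DESeq2. Against the effect beside Pdx1 with MafA 23 genes (0.0958%) differed, 20 (0.0833%) with a higher and 3 (0.0125%) with a lower fold change beside Pdx1 alone. At an unadjusted p under 0.05 there were 1710 (7.12%), and the block gave 54. This count was 242 without replicate 3 of WT cells with all 3 factors, 64 without replicate 1 of 6SA Ngn3+Pdx1 cells and 0 without any 1 of the 4 Pdx1 samples. It was 3 to 14 without replicate 2 or 3 of WT or 6SA Ngn3+Pdx1 cells, replicate 1 of WT or 6SA cells with all 3 factors, any WT sample with Pdx1 and MafA, or replicate 2 or 3 of the 6SA ones. Gal was the extreme: its median was 13.7 CPM in Ngn3+Pdx1 cells and 2.29 CPM in Pdx1 cells, but 8922 CPM with all 3 factors and 1.47 CPM with Pdx1 and MafA, a difference of -8.50 (adjusted p = 0.0406). In the other direction Dmbt1, a secreted epithelial defence protein, had medians of 350.0 and 943 CPM with and without Ngn3 beside Pdx1, and of 1.05 and 472 CPM when MafA was present too (difference 6.78, adjusted p = 0.0131). Of the 23 innate genes tested 5 and of the 26 duct keratin, surface and transport genes 1 were among the 20. The lists were drawn up with earlier results of these data known, so these counts are not independent of them.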

How the data were processed

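Per the labels and the study's methods, the authors mapped reads to mm10 by GSNAP, counted them per gene (HTSeq 0.5.3p3, Ensembl release 81) and deposited raw counts for 61 libraries made with a single-cell protocol from pools of 50 sorted cells. The strand setting is not given in the sources used here, so overlapping and antisense genes are uncertain. Libraries with at most 1000000 gene counts were left out (3 of 61, none among the 19 here) and technical repeats summed. Genes counted in 5 or more libraries whose log2(CPM + 1) had a variance above 0.001 were tested with edgeR 4.0.16 in R 4.3.3 (TMM scaling, quasi-likelihood test, 12 conditions and 32 samples in 1 fit). CPM are counts over TMM-scaled totals of gene counts. The 92 spike-ins and 5 counter summary lines stayed out. Pooled ratios carry exact intervals that cover counting error only. P-values of the edgeR tests measure spread between samples of this series. That spread was estimated over all 32 samples, most of them outside the main comparison, and the main fit did not use the pairing of samples. With the compared conditions alone, edgeR called 457 genes over both cultures in place of 358. Single values were compared by exact permutation within cultures (SciPy 1.17.1). The numbering pairs the samples: within a culture, deviations of same-numbered samples correlated at 0.519 to 0.756 over 5000 genes. DESeq2 1.42.0 and other settings served as alternatives. Scripts were tested on simulated data with 200 genes changed, drawn with the spread that edgeR estimated. There edgeR called 143 genes, 3 of them unchanged, and DESeq2 195, 44 of them unchanged.

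Named genes were Neurog3, Pdx1, Mafa and all hormones detected, the 4 called members of each list with the lowest adjusted p, the most abundant uncalled member where fewer were called, and the 10 genes higher and 10 lower with the lowest adjusted p and no overlap. Other list members named in the text were chosen after their values were seen, and results of some genes are not reported here. The comparison and the gene lists were chosen with earlier results of these data known. Symbols and GRCm38 positions came from GENCODE for 45143 of 46078 genes, and promoters from RefSeq.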

Additional observations from a re-analysis of the deposited data

Results flagged for a closer look

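The difference between the effect of Ngn3 beside Pdx1 and its effect beside Pdx1 with MafA was drawn out because the test of that difference itself called 23.0 genes with edgeR (adjusted p under 0.05). It was 0 without any 1 of the 4 Pdx1 samples. Values below are the difference in log2 fold change, the effect beside Pdx1 minus the effect beside Pdx1 with MafA, and medians over samples.

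Gal, galanin, differed by -8.50, with a median of 8922 CPM with all 3 factors. Syt8, a synaptotagmin, differed by 7.64: its medians were 13.3 and 37.8 CPM with and without Ngn3 beside Pdx1, and 0 and 43.6 CPM with MafA. With that median of 0 CPM the size of the difference is uncertain. Btc, the growth factor betacellulin, differed by 3.59 (25.4 and 28.7 against 2.93 and 35.8 CPM). Dmbt1 differed by 6.78. Trf, transferrin, differed by 4.15 (183 and 319 against 10.4 and 439 CPM). In the other direction, Scarb2, a lysosomal membrane protein, differed by -2.32 (64.7 and 40.8 against 409 and 47.1 CPM), and Fkbp9, a prolyl isomerase of the endoplasmic reticulum, by -2.27 (80.8 and 52.8 against 543 and 67.6 CPM).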

How the results depend on the processing

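With 2 Pdx1 samples per culture, counts of called genes moved more than directions did, and the causes were not tested. Over both cultures, against 358, DESeq2 called 911 genes, no gene filter 1273, edgeR without its legacy setting (chosen after seeing the data) 684, passage 2 samples alone 696, the replicate block 1011 and the replicate block within cultures 1051. Scaling by DESeq2's median of ratios in edgeR gave 380, with a median over all genes of 0.158 in place of 0.07. Against 26 in WT cultures these settings gave 218 (DESeq2), 451 (no filter), 160 (passage 2), 187 (block) and 208 (block within cultures), and the compared conditions alone 454. Against 88 in 6SA cultures they gave 404, 625, 294, 414 and 423, with 206 without the legacy setting and 162 with the compared conditions alone. The 6SA minus WT difference gave 9 genes with DESeq2, 10 with no filter and 1 with either block, against 0. The difference from the effect beside MafA gave 19 with DESeq2 and 126 with no filter, against 0. The difference from the effect beside Pdx1 with MafA gave 224 with DESeq2, 542 with no filter, 35 without the legacy setting, 10 with the compared conditions alone, 103 at passage 2, 54 with the block and 99 with the block within cultures, against 23. Leaving out 1 sample gave 117 to 418 genes over both cultures, 0 to 59 in WT, 0 to 105 in 6SA, 0 to 0 for the difference between forms, 0 to 0 against MafA and 0 to 242 against Pdx1 with MafA, where 11 single samples other than Pdx1 ones gave 3 to 14.

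Of the calls of named genes made without the block, 1 was lost with it, that of Fkbp9 for the difference from the effect beside Pdx1 with MafA (adjusted p = 0.0515). Endogenous counts per spike-in count differed by -0.69 on the log2 scale, by -0.67 at passage 2 alone (exact permutation p = 0.05556) and by -0.67 with the replicate block (exact permutation p = 0.125), and by -0.84 to -0.54 without single samples. Genes detected at 2000000 counts were 0.0671 higher on the log2 scale (exact permutation p = 0.16), 0.0878 with 1 technical repeat a sample (exact permutation p = 0.01) and 0.0355 to 0.0986 without single samples (exact permutation p 0.1 to 0.45). The mitochondrial share, 0.21 higher on the log2 scale, was -0.0561 at passage 2 alone and with the replicate block (exact permutation p = 0.8889 and 0.75), and -0.0581 to 0.485 without single samples.

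Some uncalled genes changed sign or went to 0: Mafa with DESeq2 (0.088), Btc with DESeq2 (0.032) and median-of-ratios scaling (0.036), Gcg with the replicate block within cultures (-3.17), and, with 1 technical repeat a sample, Ins1 (0), Sct (-1.28), Tac1 (0) and Btg2 (-0.0057). Without single samples, the log2 fold changes of uncalled genes that changed sign or reached 0 were -1.27 to 0.91 for Mafa, -0.89 to 1.90 for Gcg, -1.20 to 2.79 for Sct, -2.75 to 0.78 for Tac1, -1.75 to 2.75 for Calca, -0.42 to 1.07 for Pomc, 0 to 2.95 for Ucn3, -1.04 to 0.85 for Hes1, -0.36 to 0.041 for Onecut2, -0.19 to 0.39 for Btg2, -0.26 to 0.052 for Fn1, -0.74 to 0.18 for Acta2 and -0.22 to 0.15 for Btc.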

Other observations

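Of the 358 called genes 74 belong to a list, and the following, outside all of them, were picked after their values were seen (edgeR, both cultures). Peg3, an imprinted zinc finger gene, rose (151 to 1076 CPM in Ngn3+Pdx1 cells against 28.2 to 88.6 CPM in Pdx1 cells, log2 fold change 2.97, adjusted p = 0.00734). Aplp1, of the amyloid precursor family, rose over 65.6 to 569.6 against 5.59 to 23.2 CPM, 4.39, adjusted p = 2.23e-04, and Rbp4, the retinol carrier, over 92.7 to 527 against 15.5 to 49.6 CPM, 3.12, adjusted p = 0.0178. Baiap3, which acts in dense-core vesicle release (7.87 to 986 against 0 to 0.840 CPM, 9.17, adjusted p = 9.09e-04), Insrr, a receptor related to that of insulin (8.37 to 631 against 0.224 to 0.631 CPM, 9.28, adjusted p = 3.73e-04), and Hepacam2 (16.1 to 540.0 against 0 to 0.992 CPM, 9.21, adjusted p = 4.07e-05) started from near 0. Th, tyrosine hydroxylase, the first enzyme of catecholamine synthesis, ranged over 0.164 to 519.6 against 0 to 0.280 CPM, 10.03, adjusted p = 0.00210, and its 0.164 CPM was in replicate 3 of the WT cultures, the sample that also had the least Sst. Serping1, an inhibitor of complement, ranged over 33.6 to 524 against 0 to 5.32 CPM, 6.93, adjusted p = 6.71e-04.

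Among genes that fell, Tubb5, a beta tubulin, was at 459.9 to 906 against 1192 to 2091 CPM, -1.21, adjusted p = 0.0217. Csf3, the granulocyte growth factor (16.6 to 119.5 against 56.7 to 281 CPM, -2.03, adjusted p = 0.0225), Lyn, a kinase of immune signalling (12.4 to 32.7 against 41.9 to 96.7 CPM, -1.30, adjusted p = 0.0222), Ripk3, a kinase of necroptosis (10.1 to 26.6 against 40.1 to 68.2 CPM, -1.57, adjusted p = 0.0254) and Chaf1b, a histone chaperone of replication (7.90 to 40.7 against 46.9 to 138 CPM, -2.06, adjusted p = 0.0150) fell as well. S100a9 and Mmp13 fell to at most 0.159 and 0.0453 CPM in Ngn3+Pdx1 cells, from 0.0560 to 21.0 and 0 to 27.2 CPM in Pdx1 cells. Hepacam2, Aplp1, Insrr, Serping1 and Baiap3 were called in all 20 alternatives, and the other calls were lost in some (adjusted p up to 0.0659 for Th, 0.119 for Peg3, 0.187 for Rbp4, 0.252 for Tubb5, 0.393 for Csf3, 0.280 for Lyn, 0.216 for Ripk3, 0.244 for Chaf1b, 1.00 for Mmp13 and 0.481 for S100a9).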
